A study of Mus musculus with 6 samples.

Results

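The transcripts described here are those of the GPIb-IX-V complex, the platelet receptor for von Willebrand factor, and of von Willebrand factor itself. They are 5 of the 9822 genes in the deposited count tables: the receptor subunit genes Gp1ba, Gp1bb, Gp9 and Gp5, and the ligand gene Vwf, each found by the Entrez identifier of its mouse symbol. All 5 were present, and the filter on low counts removed 0 of the 9822 genes. The libraries were polyA RNA from purified platelets of male mice on the BalB/c background. The mutant mice were heterozygous for the C587R change in Nxf1 (Nxf1+/C587R), and the controls were wild-type littermates. Nxf1 encodes the receptor that carries most mRNA out of the nucleus. There were 3 mutant and 3 wild-type libraries, with 1 of each prepared on each of 3 days. Each library came from a pool of suspensions of 1 genotype in which more than 98% of events were CD41+ platelets; the labels do not say how many animals made a pool or how old they were.

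GPIb-IX-V tethers flowing platelets to von Willebrand factor bound at a damaged vessel wall. GPIb alpha, the product of Gp1ba, carries the binding site for the ligand in an extracellular domain of leucine-rich repeats. It is held by disulfide bonds to GPIb beta, and GPIX associates with both. These 3 subunits need one another to reach the cell surface, and in humans loss of any of them causes Bernard-Soulier syndrome, a bleeding disorder with giant platelets. GPV is more loosely attached and is cut by thrombin. Von Willebrand factor is a large multimeric glycoprotein made by megakaryocytes and endothelial cells, and platelets store it in alpha granules. Platelets have no nucleus, so their mRNA is what the megakaryocyte passed on.

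The subunit genes share a compact structure that Vwf lacks. In GENCODE each of the 4 subunits had its whole coding region in 1 exon, with coding lengths of 2202 bases for Gp1ba, 642 for Gp1bb, 531 for Gp9 and 1701 for Gp5. The Vwf transcript had 52 exons, 51 of them coding, and a coding length of 8439 bases. The genes are dispersed, with Gp1ba on chromosome 11 (70639102 to 70643986, RefSeq, GRCm38.p6, the assembly of mm10), Gp1bb on chromosome 16 (18620319 to 18622403), Gp5 also on chromosome 16 (30307685 to 30310781), Gp9 on chromosome 6 (87776131 to 87779786) and Vwf on chromosome 6 (125552948 to 125686679). The gene lengths given in the deposited tables were 2732 bases for Gp1ba, 2085 for Gp1bb, 811 for Gp9, 2189 for Gp5 and 8817 for Vwf.

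The sequences below are the 250 bases before the transcript start that the RefSeq promoter table gives for Gp1ba, Gp9 and Gp5, the subunits whose transcripts differed between genotypes, so that their upstream regions can be read side by side. They are from RefSeq, build GRCm38.p6, and run 5′ to 3′ on the strand of the gene: chr11:70638872-70639121 on the plus strand for Gp1ba, chr6:87777820-87778069 on the plus strand for Gp9 and chr16:30310782-30311031 on the minus strand for Gp5. The transcript starts do not all stand at the edge of the RefSeq gene span: the Gp5 window ends where the span begins, the last 20 bases of the Gp1ba window lie in the span, and the whole Gp9 window lies inside it, since the table's Gp9 start has 1939 bases of the span before it. Capitals mark matches on either strand to the motif AGATAA, the motif TGATAA, the motif AGATAG or the motif TGATAG, forms of the site bound by GATA factors, which drive megakaryocyte genes.
Gp1ba: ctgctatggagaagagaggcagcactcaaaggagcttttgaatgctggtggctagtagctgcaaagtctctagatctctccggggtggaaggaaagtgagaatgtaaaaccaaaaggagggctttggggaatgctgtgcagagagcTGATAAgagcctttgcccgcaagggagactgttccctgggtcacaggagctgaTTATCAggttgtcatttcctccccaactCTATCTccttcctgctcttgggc
Gp9: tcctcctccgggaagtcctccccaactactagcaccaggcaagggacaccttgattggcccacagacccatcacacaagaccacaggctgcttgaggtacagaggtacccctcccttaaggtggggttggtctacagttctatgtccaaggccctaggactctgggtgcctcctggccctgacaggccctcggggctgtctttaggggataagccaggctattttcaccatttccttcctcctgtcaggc
Gp5: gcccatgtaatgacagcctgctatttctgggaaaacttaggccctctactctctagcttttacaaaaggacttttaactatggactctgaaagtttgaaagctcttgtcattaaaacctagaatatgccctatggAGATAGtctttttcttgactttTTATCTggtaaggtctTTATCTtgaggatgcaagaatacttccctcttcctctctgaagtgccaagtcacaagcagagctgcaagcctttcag
Gp1ba and Gp5 each held 3 matches and the Gp1bb window held 1, and the Gp9 window, which precedes an internal start and is not a like region, held 0, where 26.5% of 32851 promoter windows of this length held at least 1. For the ETS factor letters CCGGAA or CAGGAA on either strand, Gp1ba held 1 match and the other 3 subunits 0, against 35.1% of windows with at least 1. Whether these matches bear on the changes of the transcripts was not tested. A match is only a run of letters, and a window without one says nothing about the factor.

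Library totals lay between 25189231 and 29421549 counts. Levels are CPM, the count of a gene relative to the library total, with totals scaled by the trimmed mean of M values (TMM), whose factors ran from 0.912 to 1.05 in mutant pools and 0.955 to 1.19 in wild-type libraries. Each member had at least 6639 counts per library, so counting error was at most 1.23% of a value. Both day 1 libraries stood apart in red cell transcripts: the 10 of 12 erythroid markers tested summed to 31659 CPM in the mutant and 35904 CPM in the wild-type library of day 1, against 3999 to 4599 CPM in mutant pools and 4330 to 4462 CPM in wild-type libraries of the later days. Results without day 1 are therefore given for each member. Differences were called with edgeR's quasi-likelihood test at a Benjamini-Hochberg adjusted p of 0.05 over all 9822 genes.

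Of the 5 transcripts, 2 were lower (Gp1ba and Gp9), 2 were higher (Gp5 and Vwf) and 1 did not pass (Gp1bb) in mutant platelets. Over all genes 22.1% were called, 9.16% lower and 12.9% higher. Among the 782 genes averaging at least 100 CPM, a class added after the data were seen and one that all 5 members belong to, 47.4% were called, 8.95% lower and 38.5% higher. For none of the 5 did the TMM-scaled levels of the genotypes overlap. The same was true of 36.3% of all genes (20.4% with the mutant higher and 15.9% with it lower). As shares of raw counts, Gp1bb and Gp5 overlapped between genotypes, and Gp1ba, Gp9 and Vwf did not. Gp1bb took 0.0808, 0.094 and 0.103% of mutant libraries and 0.0769, 0.08 and 0.0911% of wild-type libraries. Gp5 took 0.108, 0.101 and 0.126% of mutant libraries and 0.0852, 0.0772 and 0.103% of wild-type libraries.

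Gp1ba, which encodes the ligand-binding subunit, had the largest change of the 5. Its level was 284.1, 271.1 and 286.1 CPM in mutant libraries of days 1, 2 and 3, against 614.3, 586.8 and 581.4 CPM in the wild-type libraries. The 3 libraries of each genotype lay close together, and every mutant library lay far below every wild-type library. The mean was 280.4 ± 8.12 CPM in mutant pools and 594.2 ± 17.6 CPM in wild-type pools (n = 3 pools each, SD), and the fitted change was -1.08 ± 0.11 on the log2 scale (SE, adjusted p = 7.28e-07 by edgeR). That is 0.472 times the wild-type level, with a 95% interval of 0.403 to 0.552. Within days 1, 2 and 3 the log2 differences were -1.11, -1.11 and -1.02. Falls at least as large were called for 236 of all 9822 genes (2.4%) and for 8 of the 782 genes of at least 100 CPM (1.02%), Gp1ba included. The call held in all 21 alternatives, 1 of which (no filter) repeats the main fit, with log2 fold changes of -1.25 to -1.07. Without day 1 the log2 fold change was -1.11 (adjusted p = 4.17e-05 by edgeR).

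Gp9, which encodes the small subunit GPIX, moved the same way by less. Mutant libraries had 1659, 1649 and 1584 CPM on days 1, 2 and 3, and wild-type libraries had 2243, 2307 and 1903 CPM. On the TMM scale the wild-type library of day 3 was the lowest of its group and still lay above every mutant library. As a share of raw counts it was the highest of its group. Gp9 took 0.151, 0.158 and 0.166% of mutant libraries and 0.215, 0.22 and 0.226% of wild-type libraries. The mean was 1631 ± 40.9 CPM in mutant pools and 2151 ± 217.2 CPM in wild-type pools (n = 3 pools each, SD), a log2 fold change of -0.40 ± 0.12 (SE, adjusted p = 0.0186 by edgeR) and -0.43, -0.48 and -0.26 within the days. The fall was smaller, at -0.24, and not called (adjusted p = 0.165 by edgeR) after a correction for gene length, and Gp9 is the shortest of the 5. The same correction with the day as a block gave -0.24 and a call (adjusted p = 3.02e-05 by edgeR). The Gp9 call also depended on single libraries and days. Gp9 was not called in 7 of 9 edgeR fits, those without any 1 mutant library, wild-type replicate 1 or 2, day 1 or day 2 (adjusted p 0.0587 to 0.234), while its log2 fold change stayed between -0.48 and -0.38; without day 1 it was -0.42 (adjusted p = 0.186 by edgeR).

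Gp1bb encodes GPIb beta, the partner that is disulfide-linked to GPIb alpha. Mutant libraries had 886.8, 978.8 and 979.4 CPM on days 1, 2 and 3, and wild-type libraries had 801.4, 837.9 and 768.0 CPM. The mutant library was the higher of the pair on all 3 days, by 0.15, 0.22 and 0.35 on the log2 scale. The mean was 948.3 ± 53.3 CPM in mutant pools and 802.5 ± 34.9 CPM in wild-type pools (n = 3 pools each, SD). The log2 fold change of 0.24 ± 0.11 (SE, 95% interval 0.01 to 0.48) did not pass (adjusted p = 0.142 by edgeR), but it was called once preparation day entered the fit as a block (0.24 ± 0.07, adjusted p = 0.00161 by edgeR). That fit called 40.0% of all genes, 22.0% higher and 18.0% lower. Without day 1 it was 0.25 (adjusted p = 0.466 by edgeR), and among genes averaging at least 10 CPM, scaled on those genes alone, it was 0.07. Gp1bb shares 593 bases with Septin5 on the same strand, so reads of the shared stretch could belong to either gene. Septin5 had 3.76 ± 0.27 CPM in mutant pools and 2.50 ± 0.332 CPM in wild-type pools (n = 3 pools each, SD), far below Gp1bb.

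Gp5 encodes GPV, the thrombin-cleaved subunit. Mutant libraries had 1184, 1056 and 1203 CPM on days 1, 2 and 3, and wild-type libraries had 888.3, 808.6 and 871.3 CPM. Day 2 was the lowest day in both genotypes. The groups did not overlap on the TMM scale but did as shares of raw counts. The mean was 1148 ± 79.7 CPM in mutant pools and 856.1 ± 42.0 CPM in wild-type pools (n = 3 pools each, SD). The fitted change was 0.42 ± 0.11 on the log2 scale (SE, adjusted p = 0.0111 by edgeR), with 0.41, 0.39 and 0.47 within the days. It was 0.25 (adjusted p = 0.0536 by edgeR) among genes averaging at least 10 CPM. With library size alone as the scaling it was 0.34 (adjusted p = 0.0575 by edgeR). It was not called in 6 of 9 edgeR fits, those without mutant replicate 1 or 2, wild-type replicate 1 or 2, day 1 or day 2 (adjusted p 0.0582 to 0.222), with log2 fold changes of 0.34 to 0.44; without day 1 it was 0.39 (adjusted p = 0.213 by edgeR).

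Vwf, the ligand gene, rose. Mutant libraries had 3372, 3811 and 4032 CPM on days 1, 2 and 3, and wild-type libraries had 2175, 2260 and 2233 CPM. On the TMM scale the wild-type libraries lay close together, and every mutant library lay above the highest of them by far more than their spread. As a share of raw counts, Vwf took 0.307, 0.366 and 0.424% in mutant libraries and 0.209, 0.216 and 0.265% in wild-type libraries. These shares did not overlap, but the gap between the groups was smaller than the range of the wild-type shares. The mean was 3739 ± 336.0 CPM in mutant pools and 2222 ± 43.3 CPM in wild-type pools (n = 3 pools each, SD), and the fitted change was 0.75 ± 0.12 on the log2 scale (SE, adjusted p = 0.000109 by edgeR), or 1.68 times the wild-type level (95% interval 1.42 to 1.99). Within days 1, 2 and 3 the log2 differences were 0.63, 0.75 and 0.85. Vwf was the 35th most abundant gene in CPM in mutant platelets and the 56th in wild-type platelets, while Gp1ba was the 402nd in mutant and the 204th in wild-type platelets. The call held in all 21 alternatives, 1 of which (no filter) repeats the main fit, with log2 fold changes of 0.58 to 0.78. Without day 1 the log2 fold change was 0.76 (adjusted p = 0.00888 by edgeR).

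**Figure D1:**
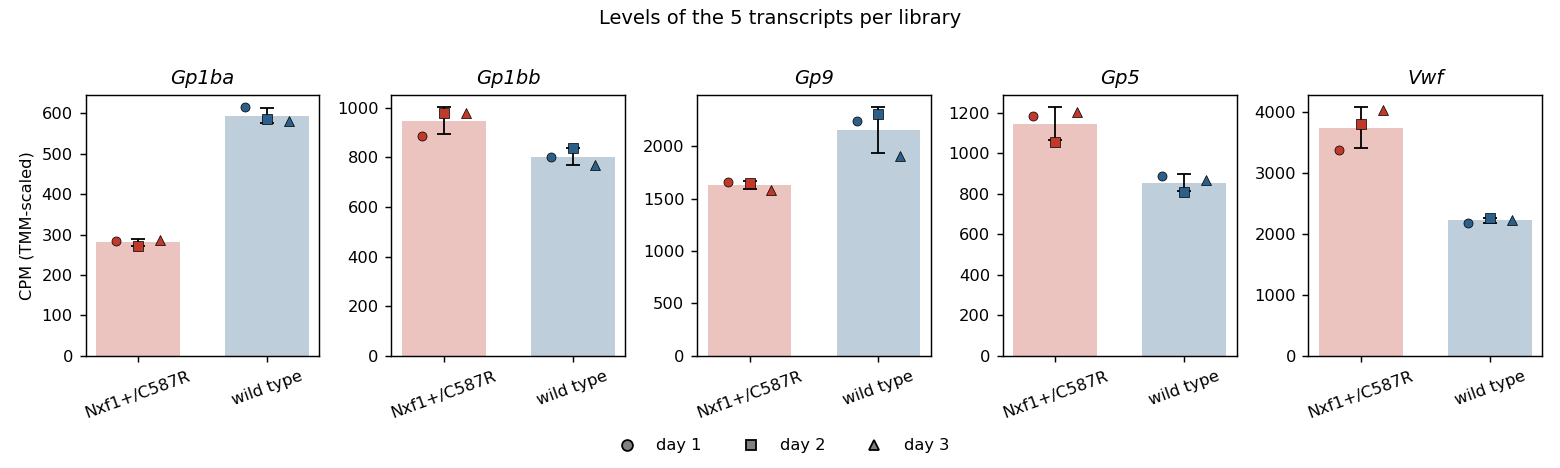
Level of each transcript in CPM (TMM-scaled, linear axes from 0) in Nxf1+/C587R libraries (red) and wild-type libraries (blue). Bars are means, whiskers are SD (n = 3 each) and symbols are the preparation days; the mutant libraries lie below all wild-type libraries for Gp1ba and Gp9 and above them for Gp1bb, Gp5 and Vwf.

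**Figure D2:**
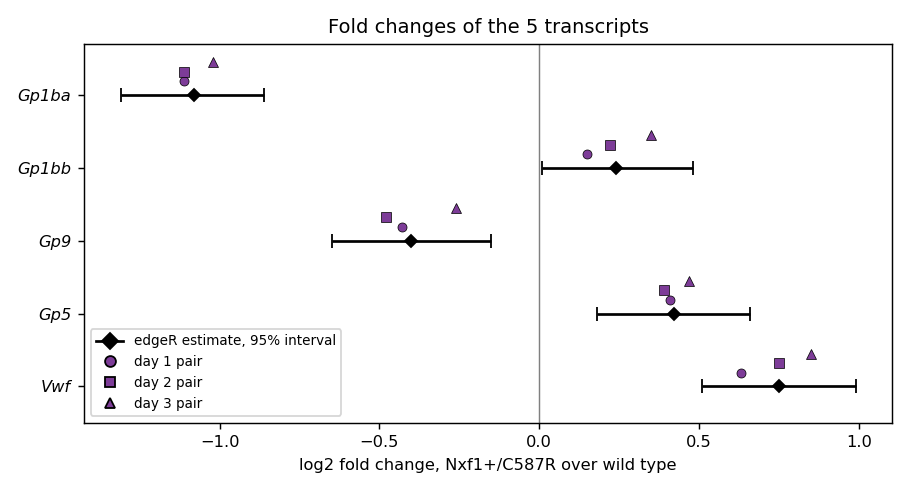
Log2 fold change of each transcript, Nxf1+/C587R over wild type, with the edgeR estimate and its 95% interval (diamonds and lines) and the difference within each preparation day (small symbols above). Gp1ba stands at -1.08 and Vwf at 0.75, and the 3 days have the same sign for every transcript.

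Endothelial cells also make von Willebrand factor, so their markers were read beside it. Of 20 endothelial markers 12 were tested, and 2 were higher (16.7%), Tie1 and Plvap, with 0 lower (6 and 0 with the day as a block). The share higher among all genes was 12.9%, and 22.0% with that block. The summed level of the 12 was 2021 to 2163 CPM in mutant pools and 1572 to 1940 CPM in wild-type libraries, most of it from Pecam1 and Esam, which platelets also express. Tie1, an endothelial receptor tyrosine kinase gene, had 85.8 CPM in mutant pools and 53.3 CPM in wild-type pools, 0.69 on the log2 scale (adjusted p = 0.000279 by edgeR), where Vwf had 0.75. Plvap had 0.39 (adjusted p = 0.0187 by edgeR), and Cdh5 at 0.59 and Kdr at 0.40 did not pass (adjusted p = 0.0918 and 0.0977 by edgeR). The other tested markers did not all rise. Egfl7 and Ptprb had -0.18, Icam2 -0.15, Eng -0.0, Flt1 0.04, Sox18 0.16, Pecam1 0.18 and Esam 0.28, and none of these was called. All of these but Pecam1 and Esam had means between 0.598 and 1.28 CPM in either genotype. The count of 2 was 1 without mutant replicate 1 or 2, wild-type replicate 1, day 1 or day 2, and 4 without mutant replicate 3 or day 3. Cdh5, which encodes the endothelial junction protein VE-cadherin, lay between 1.89 and 3.35 CPM in mutant pools and between 1.36 and 2.12 CPM in wild-type libraries. Tek, Emcn, Cldn5, Robo4, Sox17, Mmrn2, Ecscr and Nos3 were not found among the 9822 genes listed. Every listed gene exceeded 0.5 CPM in 3 or more libraries. Platelet and megakaryocyte markers were abundant in every library. Their 12 genes summed to 72367 to 81648 CPM in mutant pools and 60776 to 75051 CPM in wild-type libraries, with 6 higher and 0 lower, against 38.5% higher among genes averaging at least 100 CPM, to which all 12 belong. Without day 1, 3 were higher, and 2 were lower among genes averaging at least 10 CPM. Itga2b, the gene of CD41, was at 8703 to 9276 CPM in mutant pools and 6836 to 7649 CPM in wild-type libraries. In such bulk RNA fewer cells of a type and less RNA per cell cannot be told apart.

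Markers of other blood cells were read in the same way. The 14 B cell markers summed to 353.0 to 434.3 CPM in mutant pools and 437.4 to 581.6 CPM in wild-type libraries, with 5 lower and 0 higher (10 and 1 with the day as a block), where 9.16% of all genes were lower. The 5 became 3 without mutant replicate 1, 8 without mutant replicate 3, and 2 with library size alone or with the length correction. The 11 of 12 T and NK cell markers tested summed to 25.9 to 28.0 CPM in mutant pools and 27.0 to 31.7 CPM in wild-type libraries, with 0 called by edgeR in either direction (1 higher and 2 lower with the day as a block). Of 14 myeloid markers 9 were tested and summed to 1786 to 2097 CPM in mutant pools and 1169 to 1609 CPM in wild-type libraries; nearly all of it was Lyz2, the 1 marker called higher, and 0 were called higher without mutant replicate 2, wild-type replicate 1, day 1 or day 2. Of the erythroid markers 1 was higher, Sptb, and 0 lower. The part of other cells in the changes of the 5 members was not tested.

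Ratios between the 5 transcripts were also compared between genotypes, a comparison that does not depend on how libraries are scaled to one another. Per length, Gp1ba stood to Gp1bb as 0.226 ± 0.0168 in mutant pools and 0.566 ± 0.0273 in wild-type pools, and Gp1ba stood to Vwf as 0.243 ± 0.0246 in mutant pools and 0.863 ± 0.0417 in wild-type pools (n = 3 pools each, SD). On the log2 scale the ratio of Gp1ba to Vwf was lower in mutant platelets by 1.74, 1.87 and 1.88 on days 1, 2 and 3. Gp1ba also declined against Gp9, the other subunit that fell, with a ratio of 0.0511 ± 0.00241 in mutant pools and 0.0825 ± 0.00767 in wild-type pools (n = 3 pools each, SD). Of the 10 pairs of members, 9 had ratios that did not overlap between genotypes, each at p = 0.1 in an exact permutation test with 2 sides (adjusted p = 0.111 over 10 pairs), the smallest p that 3 against 3 libraries allow. The exception was Gp1bb to Gp5, at 0.871 ± 0.0943 in mutant pools and 0.987 ± 0.0882 in wild-type pools (n = 3 pools each, SD, exact permutation p = 0.3), a log2 difference of -0.27, -0.16 and -0.11 within the days. The 10 pairs are built from the same 5 genes, whose own TMM-scaled levels did not overlap between genotypes, so the pairs are not separate results. How often ratios of other gene pairs fail to overlap was not computed.

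Among the 4 subunits, Gp1ba made up 3.32 ± 0.0941% of the summed CPM per kilobase in mutant pools and 5.98 ± 0.398% in wild-type pools (n = 3 pools each, SD). Gp9 held 65 ± 1.35% in mutant pools and 72.7 ± 1.9% in wild-type pools, Gp5 held 17 ± 1.16% in mutant pools and 10.8 ± 1.16% in wild-type pools, and Gp1bb held 14.7 ± 0.92% in mutant pools and 10.6 ± 0.461% in wild-type pools (n = 3 pools each, SD). In raw counts the 4 subunits took 0.391 ± 0.0314% of a mutant and 0.453 ± 0.0313% of a wild-type library, without overlap (n = 3 pools each, SD, exact permutation p = 0.1). With Vwf added the share was 0.756 ± 0.0886% in mutant pools and 0.683 ± 0.0616% in wild-type libraries, and these overlapped (n = 3 pools each, SD, exact permutation p = 0.3).

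The order of mean levels per length was the same in both genotypes, with other neighbours overlapping. In mutant platelets Gp9 was highest, at 2011 ± 50.4 CPM per kilobase, followed by Gp5 at 524.3 ± 36.4, Gp1bb at 454.8 ± 25.6, Vwf at 424.0 ± 38.1 and Gp1ba at 102.7 ± 2.97 CPM per kilobase (n = 3 pools each, SD). Gp1bb and Vwf overlapped there, and Gp5 lay above Gp1bb in each library. In wild-type platelets Gp9 had 2652 ± 267.8, Gp5 391.1 ± 19.2, Gp1bb 384.9 ± 16.8, Vwf 252.1 ± 4.91 and Gp1ba 217.5 ± 6.45 CPM per kilobase (n = 3 pools each, SD). Gp5 and Gp1bb overlapped there. The order was the same in both genotypes with the length of the GENCODE transcript in place of the deposited length. Gp1bb shares 593 of its 2085 bases with Septin5, and how reads of that stretch were counted is not given. The place of Gp1bb in the order is therefore uncertain, as are its per-length ratios and the subunit percentages above.

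**Figure D3:**
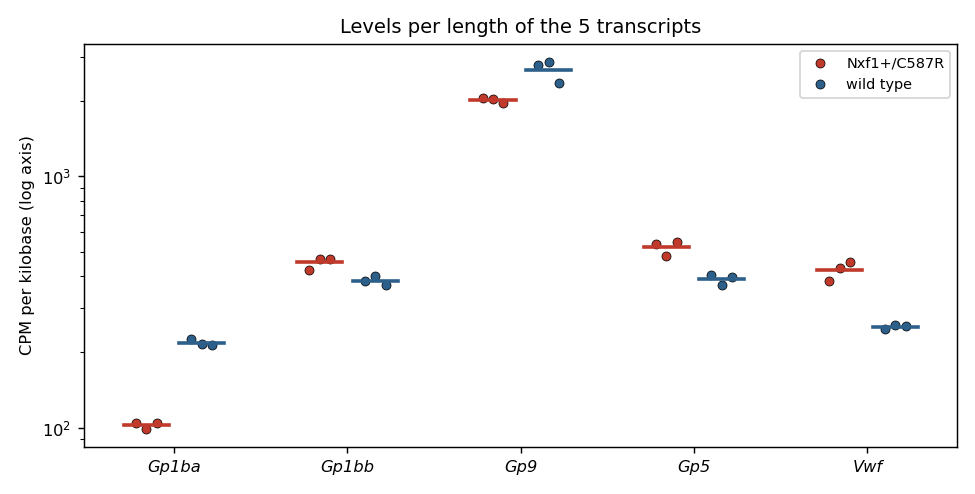
Level per length of each transcript in CPM per kilobase (log axis) in Nxf1+/C587R libraries (red, left of each pair) and wild-type libraries (blue), with 1 point per library and a line at the mean of 3. Gp9 lies above the other 4 in both genotypes, and Gp1ba lies lowest, at 102.7 in mutant pools and 217.5 in wild-type pools.

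Genes around the receptor and its ligand were counted in 6 lists, read beside the shares called of all genes (12.9% higher and 9.16% lower) and of genes averaging at least 100 CPM (38.5% higher and 8.95% lower). Of 32 partners that work with the receptor inside the cell, in signalling or the cytoskeleton, 12 rose (37.5%) and 1 fell (18 and 4 with the day as a block). Of the 15 averaging at least 100 CPM 8 rose and 0 fell. The 37.5% is to be read beside the 12.9% of all genes, and the 8 of 15 beside the 38.5% of abundant genes. Neither difference was tested. The list median log2 fold change was 0.22, where the median of all genes was -0.04. Src, the tyrosine kinase gene, had 68.1 CPM in mutant pools and 29.9 CPM in wild-type pools, a log2 fold change of 1.19 ± 0.13 (SE, adjusted p = 1.52e-06 by edgeR). Flna, which encodes the filamin that anchors the tail of GPIb alpha to actin, had 1905 CPM in mutant pools and 1068 CPM in wild-type pools (0.83 ± 0.12, SE). The exchange factor gene Vav1 (0.70) and the kinase gene Syk (0.47) also rose. Pik3r1, a regulatory subunit of phosphoinositide kinase named after its value was seen, was the 1 that fell (-0.47). The count of 12 was 4 without mutant replicate 2, 6 without mutant replicate 1, 7 without wild-type replicate 1 or 2, 4 without day 1 and 3 without day 2. Syk lost its call in 3 and Pik3r1 in 4 of the 9 fits that left out a library or day (adjusted p up to 0.172 and 0.245 by edgeR).

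Enzymes that build the sugar chains of GPIb alpha and von Willebrand factor rose or did not pass: 7 of 19 tested rose and 0 fell (8 and 2 once day was a block, 3 and 1 among genes averaging at least 10 CPM), with a median of 0.19. That is 36.8% higher, where 12.9% of all genes were higher. Only 3 of the 19 averaged at least 100 CPM, and all 3 rose. C1galt1, the enzyme that makes the core of most O-linked chains, had 56.9 CPM in mutant pools and 23.2 CPM in wild-type pools, a log2 fold change of 1.30 ± 0.14 (SE, adjusted p = 1.22e-06 by edgeR). It was called in all 9 fits that left out a library or day. Galnt1, which starts O-linked chains, had 0.67, and the sialyltransferase genes St3gal2 and St3gal1 had 0.69 and 0.49; St3gal2 lost its call in 1 and St3gal1 in 3 of those fits (adjusted p up to 0.183 and 0.148 by edgeR). The count of 7 was 4 without mutant replicate 1, mutant replicate 2 or day 1 and 2 without day 2.

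Of 9 genes tested for shedding or clearance of the receptor, 2 rose (22.2%) and 1 fell, with a median of 0.14. Capn2, a calpain protease gene, had 230.8 CPM in mutant pools and 144.4 CPM in wild-type pools (log2 fold change 0.68 ± 0.11, SE, adjusted p = 0.000244 by edgeR), and the metalloprotease gene Adam10 had 0.44. Timp3, an inhibitor of metalloproteases, had 7.43 CPM in mutant pools and 17.6 CPM in wild-type pools (-1.24 ± 0.30, SE). Adam10 and Timp3 each lost their call in 5 of the 9 fits that left out a library or day (adjusted p up to 0.168 and 0.193 by edgeR). Without mutant replicate 1 or 2, or without day 1 or 2, 1 rose and 0 fell; without wild-type replicate 2, 1 rose and 1 fell, and without mutant replicate 3, 2 rose and 0 fell.

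On the ligand's side, of 28 genes of von Willebrand factor processing, granule storage and release 7 rose (25%) and 0 fell (11 and 2 once day was a block), with a median of 0.12. Of the 6 averaging at least 100 CPM 3 rose. Stx11, a syntaxin of granule release, had 2126 CPM in mutant pools and 1129 CPM in wild-type pools (log2 fold change 0.91 ± 0.12, SE, adjusted p = 2.24e-05 by edgeR). Furin, the protease that removes the propeptide of von Willebrand factor, had 20.9 CPM in mutant pools and 12.8 CPM in wild-type pools (0.71 ± 0.13, SE), and Stx2 (0.78) and the vesicle SNARE gene Vamp8 (0.68) also rose. Stx2 and Vamp8 each lost their call in 1 of the 9 fits that left out a library or day (adjusted p up to 0.103 and 0.0542 by edgeR), and the count was 3 without day 2. Of 9 binding partners tested 4 rose (44.4%) and 0 fell, with a median of 0.31: Thbs1, the thrombospondin gene (0.75), the integrin subunit genes Itgb3 (0.67) and Itgb2 (0.64), and the collagen receptor gene Gp6 (0.42). All 4 were among the 6 partners that averaged at least 100 CPM. Gp6 lost its call in 5 and Thbs1 in 1 of those fits (adjusted p up to 0.176 and 0.0608 by edgeR), and 2 rose without mutant replicate 2.

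Of 18 tested genes in the transcription factor list, 2 rose and 1 fell, with a median of -0.02. With the day as a block 6 rose and 2 fell, and among genes averaging at least 10 CPM 2 rose and 4 fell. Whether each of these genes acts on the receptor's promoters was not tested. Zfpm1, the cofactor of GATA1, had 32.9 CPM in mutant pools and 18.5 CPM in wild-type pools (log2 fold change 0.83 ± 0.12, SE, adjusted p = 3.65e-05 by edgeR). Mafg, a partner of NF-E2, had 0.53 and Gfi1b, a megakaryocyte and erythroid repressor, had -0.38; they lost their calls in 3 and 4 of the 9 fits that left out a library or day (adjusted p up to 0.12 and 0.191 by edgeR). Without day 1, and likewise without day 2, 1 rose and 0 fell. Without mutant replicate 1, 1 rose and 1 fell, and without wild-type replicate 2, 2 rose and 0 fell. The 2 that rose are 11.1% of the list, near the share of all genes.

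**Figure D4:**
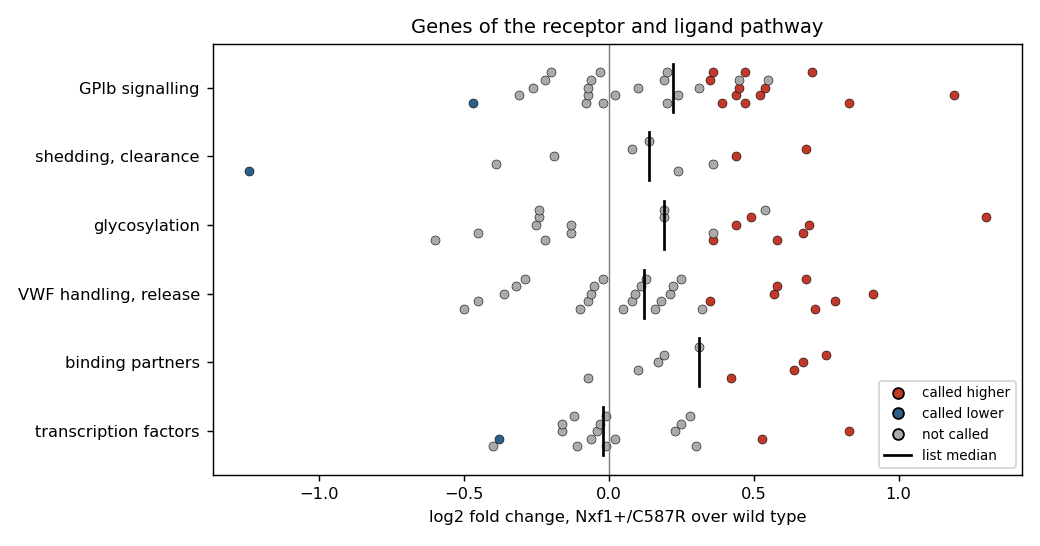
Log2 fold change, Nxf1+/C587R over wild type, of the tested genes of 6 lists around the receptor and its ligand. Each point is a gene, red where called higher, blue where called lower and grey where not called, and the black line is the list median, which runs from -0.02 for transcription factors to 0.31 for binding partners.

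Since the 4 receptor subunits each have 1 coding exon, tested genes with coding exons in GENCODE were sorted by the number of these, a description with no test. Tested genes without a coding exon there are in no class. Of 433 genes with 1 coding exon, 9.47% were called higher and 22.4% lower in mutant platelets, with a median log2 fold change of -0.18. Of 4823 genes with 2 to 10 coding exons, 14.5% were higher and 7.65% lower (median -0.01). Of 3732 genes with 11 to 50, 12.5% were higher and 4.88% lower (median -0.04), and of 87 genes with more than 50, the class of Vwf, 14.9% were higher and 8.05% lower (median 0.01). Within the class of 1 coding exon, Gp1ba and Gp9 fell, Gp5 rose and Gp1bb did not pass.

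The genes beside the members did not all move with them. Slc25a11, a mitochondrial carrier gene that lies 32 bases past the end of Gp1ba on the other strand, had 5.78 ± 0.651 CPM in mutant pools and 6.52 ± 1.24 CPM in wild-type pools (n = 3 pools each, SD, log2 fold change -0.17, adjusted p = 0.517 by edgeR); it overlaps Rnf167. Mink1, on the other side of Gp1ba, had 0.29 (adjusted p = 0.0776 by edgeR). Atp13a3, which lies 1641 bases from Gp5, fell by 0.85 on the log2 scale (adjusted p = 0.00141 by edgeR), against the rise of Gp5. Lrrc15 on the other side of Gp5 fell by 1.17 but had a mean below 1 CPM in both genotypes. Beside Vwf, the tetraspanin gene Cd9 had 0.19 and Ano2 0.22, and neither passed (adjusted p = 0.337 and 0.637 by edgeR). Around Gp9 Gm5879, a pseudogene whose counts are uncertain, had -0.53 (adjusted p = 0.0368 by edgeR) and Rab43 had -0.05. Septin5, which overlaps Gp1bb, had 0.59 (adjusted p = 0.0248 by edgeR), and Ufd1, the nearest tested gene on its right, had 0.30 (adjusted p = 0.157 by edgeR) and did not pass. Septin5 lost its call in 7, Gm5879 in 6 and Lrrc15 in 2 of the 9 fits that left out a library or day (adjusted p up to 0.176, 0.17 and 0.172 by edgeR).

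Genes whose levels ran most like each member were found among the 3017 genes averaging at least 10 CPM, by the smallest root mean square difference of centred log2 CPM over the 6 libraries. For Gp1ba they were Hbp1, with 33.6 CPM in mutant pools and 69.5 CPM in wild-type pools and a difference of 0.0468, then Hmga2-ps1 (0.0601) and Hsd17b14 (0.0631). For Vwf they were Rfk (0.0336), Wdtc1 (0.0572) and Samd14 (0.0593), the last with 1187 CPM in mutant pools and 704.9 CPM in wild-type pools. For Gp9 they were Map3k5, Ifit2 and Ppp2r2a (0.0298 to 0.0346), for Gp5 Grap2, Ankfy1 and Eif4g1 (0.0324 to 0.0381), and for Gp1bb Dnajc14, Pi4ka and Epn1 (0.026 to 0.0287). No member was among the genes nearest to another member. Hbp1, Hmga2-ps1, Dnajc14 and Pi4ka overlap other genes of the tables, so their counts are uncertain. These likenesses rest on 6 libraries that share depth and preparation days, and are descriptions only.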

How the data were processed

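Platelet polyA RNA was sequenced from 3 Nxf1+/C587R and 3 wild-type pools. The authors deposited raw read counts per gene, with gene lengths. CASAVA 1.8.2, Subread, featureCounts and mm10 are named per the submitters' processing notes; for strand and multi-mapping settings the labels give nothing. Every one of the 9822 genes listed exceeded 0.5 CPM in 3 or more libraries. Symbols came from RefSeq (9636 genes) and GENCODE (2); 184 genes stayed unnamed. The members and the gene lists were chosen with earlier results of these data known.

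Counts were scaled by TMM and tested with edgeR 4.0.16 (R 4.3.3; quasi-likelihood, genotype only, Benjamini-Hochberg threshold 0.05) after filterByExpr, which removed 0 genes; the code was tested on simulated data. Named genes were the members, their nearest tested or overlapping neighbours, up to 4 called genes per list by smallest p, and the 3 genes averaging at least 10 CPM most like each member. The left neighbour of Gp1bb is not reported here. Ratios between members were compared by two-sided exact permutation tests.

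Libraries of the same day deviated together from their group means (r = 0.41, 0.253 and 0.468; highest between days -0.00816), and the labels give the shared day, so a fit with the day as a block was also made. Pools are the replicates; whether they hold separate animals is not given, and p-values cover only the spread among these pools. Alternatives were other scalings, filters, DESeq2 1.42.0, limma 3.58.1, a gene length correction, the block, and leaving out each library or day. The length of GENCODE transcripts and the class of at least 100 CPM were added after seeing the data.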

Additional observations from a re-analysis of the deposited data

How the results depend on the processing

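All 5 transcripts kept their direction in 21 of 21 alternatives, and Gp1ba and Vwf also kept their call. Of these alternatives, 1 was the fit without a filter, which repeats the main fit because the filter removed 0 genes. Gp5 was not called with library size alone (0.34, adjusted p = 0.0575 by edgeR) or among genes averaging at least 10 CPM (0.25, adjusted p = 0.0536), and Gp9 was not called with the length correction (-0.24, adjusted p = 0.165). Gp9 was called when that correction was joined with the day as a block (-0.24, adjusted p = 3.02e-05 by edgeR). With the preparation day as a replicate block Gp1bb was called (0.24, adjusted p = 0.00161 by edgeR; 0.24, adjusted p = 5.55e-05 by DESeq2; 0.28, adjusted p = 6.31e-07 by edgeR with the length correction), and no other member's call changed under the block alone. Without 1 library or day, log2 fold changes were -0.48 to -0.38 for Gp9 (-0.42 without day 1 and -0.40 without day 2) and 0.34 to 0.44 for Gp5 (0.39 and 0.40 without those days).

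Over all genes 1266 were higher and 900 lower. The counts were 2164 and 1765 with the replicate block, 2477 and 1595 with the block and length correction, 723 and 755 for genes averaging at least 10 CPM, 1178 and 1026 with upper-quartile factors, 956 and 909 with library size alone, and 1060 and 1014 without the 10 most abundant genes. Without 1 library or day they ran from 485 (without day 2) to 1387 (without day 3) higher and from 520 to 1002 lower, the same days; without mutant replicate 2 they were 654 and 728, and without mutant replicate 1 they were 706 and 785. The cause was not tested. The median of all genes was -0.13 with library size alone and -0.04 with TMM. A protein length in place of gene length was not run. With 3 pools per genotype, the spread between pools exceeds the counting error of the members.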
